A study of Mus musculus with 8 samples.

Results

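Genes of the Hippo pathway were compared between mouse embryonic stem cell lines that are labelled tetraploid and lines that are not. The set holds 10 genes, chosen by name as kinases (Lats1, Lats2), coactivators (Yap1, Wwtr1), DNA-binding partners (Tead1, Tead2) and target genes (Amotl2, Ccn1, Ccn2, Axl), out of 8816 genes or unnamed probes that entered the tests. Total RNA of 8 lines was hybridised to Illumina bead arrays, 1 for each line. The 6 tNT lines came from tetraploid nuclear transfer, and the series title refers to the reprogramming of a pair of somatic nuclei in the same egg cytoplasm. The 2 NT lines came from nuclear transfer and are labelled not tetraploid. The design text places tNT lines 1 to 6 at p17, p19, p25, p29, p18 and p25, taken here as passage numbers, and states no passage for NT lines. Every line is labelled mixed strain and is noted as prepared by double sedimentation, which the sources used here do not explain. Beyond the line numbers no label tells whether cultures were separate, so p-values measure only the spread between these 8 samples. Per array, 10449 to 10969 of 25697 probes exceeded background, and the number of arrays, 6 against 2, limits the precision.

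The Hippo pathway is a kinase cascade in which Lats1 and Lats2 phosphorylate the coactivators Yap1 and Wwtr1 (also called Taz), which are then held in the cytoplasm or degraded. Without that phosphorylation they enter the nucleus, bind Tead factors and switch on genes such as Ccn1 and Ccn2. In human cells made tetraploid by failed division, LATS2 is known to be activated and YAP activity to be lowered, which is the question put to the lines here. An array measures RNA only, so phosphorylation and location of the proteins are not seen. Quantile normalization gives all arrays 1 distribution, so a difference in RNA content per cell is not seen either.

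Tead factors bind the letters GGAATG, read as CATTCC on the other strand. The sites below are shown because they are where these letters stand before members that the pathway is known to control or use. The RefSeq promoter table (build GRCm38.p6) has an entry for 8 members and none for Tead1 and Ccn2, which were not searched. Of the 8, 5 hold the letters on either strand in the 250 bases before the annotated start. Of all 32851 windows of that length in the table, 12.6% hold them. A member was counted if any of its entries holds the letters, while the 12.6% counts single windows, so these are unlike measures. Each line gives 30 bases on the strand of the gene, with the letters in capitals. The sites begin 103, 65, 233, 141 and 136 bases before the start of Ccn1, Amotl2, Axl, Yap1 and Wwtr1. They lie in chr3:145650071-145650100 (minus strand), chr9:102717727-102717756 (plus), chr7:25788949-25788978 (minus), chr9:8004720-8004749 (minus) and chr3:57576029-57576058 (minus).
Ccn1: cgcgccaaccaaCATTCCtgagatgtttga
Amotl2: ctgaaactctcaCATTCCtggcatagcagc
Axl: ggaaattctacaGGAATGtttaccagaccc
Yap1: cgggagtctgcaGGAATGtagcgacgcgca
Wwtr1: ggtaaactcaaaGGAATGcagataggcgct

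The whole stretch before Ccn1, the member with the largest difference between the groups, is chr3:145649986-145650235 on the minus strand, with the same letters in capitals. These are matches of letters, and binding was not measured.
Ccn1: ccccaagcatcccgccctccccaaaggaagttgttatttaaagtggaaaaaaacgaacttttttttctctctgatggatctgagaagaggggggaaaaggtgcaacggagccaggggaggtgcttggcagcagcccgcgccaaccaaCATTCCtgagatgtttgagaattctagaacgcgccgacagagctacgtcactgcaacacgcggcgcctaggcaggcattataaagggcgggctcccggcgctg

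The cell type was checked against its markers. All 9 embryonic stem cell markers with a probe (Pou5f1, Nanog, Sox2, Zfp42, Esrrb, Klf4, Dppa5a, Tdgf1 and Utf1) were above background on all 8 arrays, and none passed between the groups. Differences of tNT minus NT were negative for 3 of them and positive for 6. The largest was that of Klf4, at 0.92 with every tNT value above both NT values (limma, adjusted p = 0.161). Of 18 fibroblast markers, 17 had a probe and 10 were tested (Col1a1, Col5a1, Thy1, Vim, Dcn, Lum, Twist1, Sparc, Acta2 and Tagln). The other 7 (Col1a2, Col3a1, Postn, Pdgfra, Pdgfrb, Prrx1 and S100a4) were not above background on enough arrays, and no probe is named for Fn1. The summed intensity of the 10 after background correction was 4889, 6329, 3997, 4129, 4620 and 4419 for tNT lines 1 to 6, against 5789 and 5311 for the NT lines. By this sum tNT line 2 lay above both NT lines and the other 5 tNT lines below both. A sum weighs the brightest genes most. By the mean log2 level of the same 10, tNT line 1 at 8.13 lay between NT lines 1 and 2 at 8.17 and 7.98. Of the 10, 4 had negative and 6 positive differences of tNT minus NT, with a median of 0.04, and none passed. Acta2, smooth muscle actin, had a difference of -0.74 with every tNT value below both NT values (limma, adjusted p = 0.161). Thy1 went the other way, at 0.39 with every tNT value above both NT values (limma, adjusted p = 0.440). Fibroblasts also express Ccn1, Igfbp3 and Nt5e, which are described below, and the part of the fibroblast markers in their values was not tested. In bulk RNA, fewer cells of a type and less RNA per cell cannot be told apart.

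In these lines no member of the set passed the test between tNT and NT lines. Of the 10 members, 9 have a probe and 7 were above background on enough arrays to be tested (a detection p under 0.01 on at least 2 arrays). All 7 had a negative log2 difference of tNT minus NT, with a median of -0.24, but none reached an adjusted p of 0.05 (limma, adjusted p between 0.148 and 0.697). Over all 8816 tested, 1.86% passed (0.964% as lower in tNT lines), 49.1% had a negative difference and the median difference was 0.01. The 7 differences share the same NT lines and come from related genes, so they are not separate observations. The members were also chosen with earlier results of these data known. Ccn1 and Tead2 had tNT values below both NT values, as did 10.4% of all tested. The same pair had an unadjusted p under 0.05, as did 18% of all tested in either direction.

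**Figure D1:**
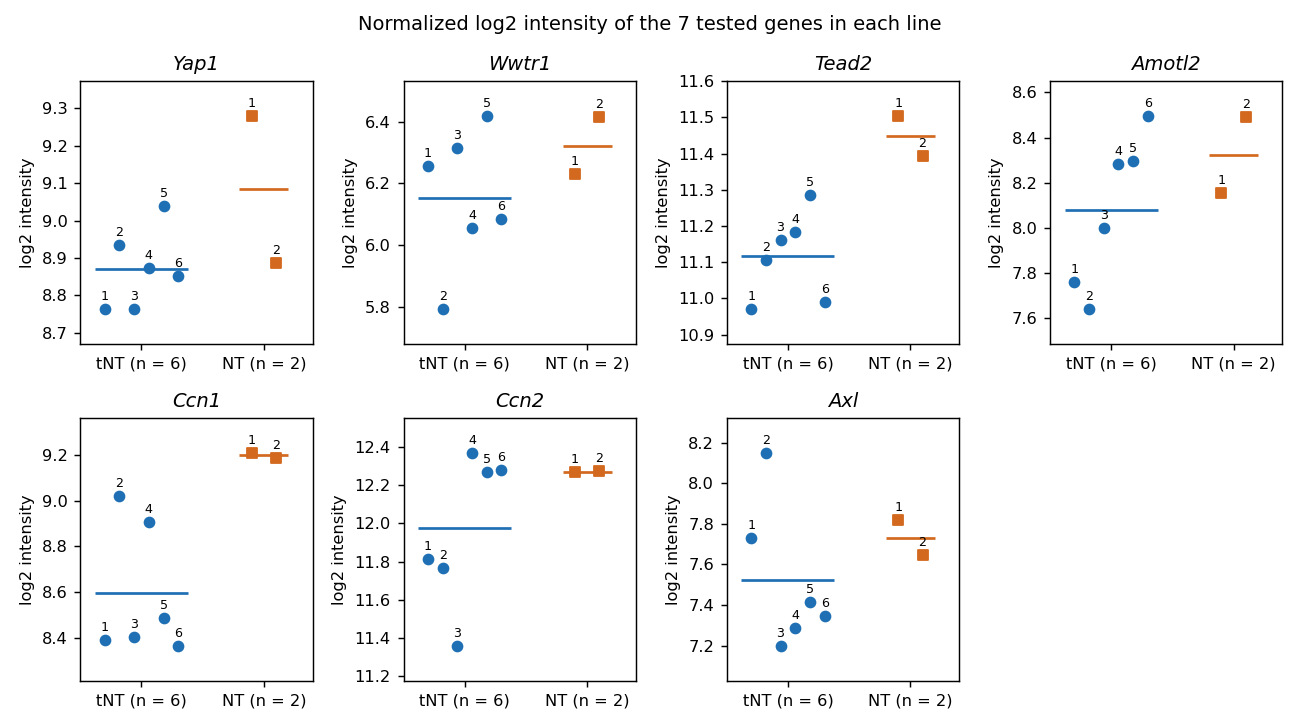
Normalized log2 intensity (vertical axes, each with its own range) of the 7 tested genes in the 6 tNT lines (circles) and the 2 NT lines (squares), with the line number beside each point and the group mean as a bar. The tNT circles lie below both NT squares for Tead2 and Ccn1 and overlap them for the other 5 genes.

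The kinases could not be compared. For Lats1 no probe is named in the platform annotation. The single probe of Lats2, the kinase that human tetraploid cells are known to activate, was not above background on any of the 8 arrays. Its bead intensity was 109.9, 104.0, 92.5, 105.4, 97.9 and 101.2 across tNT lines 1 to 6, against 107.8 and 102.2 in NT lines 1 and 2, with detection p-values of 0.213 to 0.683. These intensities were within the range of the negative controls and the groups overlapped, so a level of Lats2 RNA could not be given for either group. The activity of the kinase is set by phosphorylation, which the arrays do not measure.

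**Figure D2:**
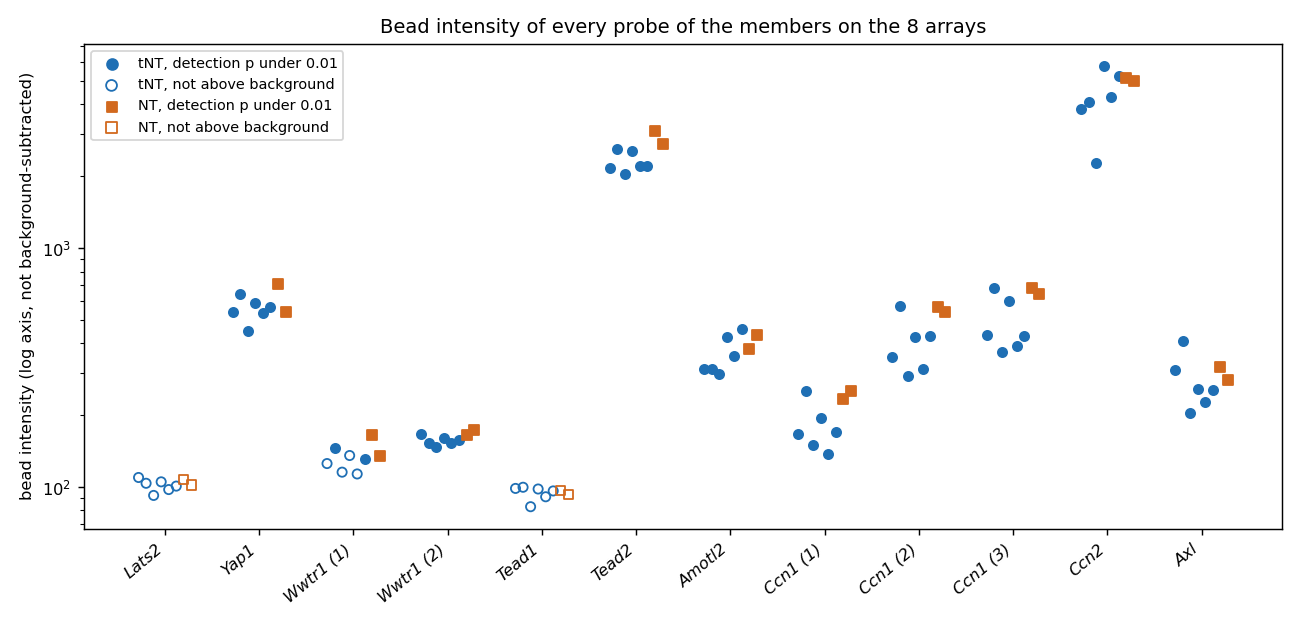
Bead intensity before background correction (vertical log axis) of the 12 probes of the members on the 8 arrays, with circles for tNT lines, squares for NT lines, and open symbols where the detection p was 0.01 or more. Lats2 and Tead1 have open symbols on every array, and a probe of Wwtr1 on 4 of 8.

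Yap1, the main coactivator of the pathway, was above background on every array. Its normalized log2 intensity was 8.76, 8.94, 8.76, 8.87, 9.04 and 8.85 across tNT lines 1 to 6, against 9.28 and 8.89 in NT lines 1 and 2. NT line 1 stood above all other lines, while NT line 2 lay inside the tNT range. The difference of -0.21 (95% interval -0.52 to 0.10, limma, adjusted p = 0.463) therefore rested on NT line 1, and without that line it was -0.02. Among the tNT lines Yap1 varied little, with an SD of 0.11 (n = 6), and 9.91% of all genes tested varied as little or less.

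Wwtr1, the other coactivator, has a pair of probes. By its brighter probe the log2 intensity was 6.26, 5.79, 6.32, 6.05, 6.42 and 6.09 across tNT lines 1 to 6, against 6.23 and 6.41 in NT lines 1 and 2. The groups overlapped, tNT line 2 was lowest, and the difference was -0.17 (95% interval -0.55 to 0.21, limma, adjusted p = 0.653). The dimmer probe of Wwtr1 was above background on 4 of the 8 arrays, among them both NT arrays, and differed by -0.50 (limma, adjusted p = 0.186 over all detected probes). That value came from NT line 1, at 6.23, since NT line 2 at 5.56 lay within the tNT range of 5.21 to 5.61. Probes that the annotation calls Taz belong by gene identifier to tafazzin, an enzyme of mitochondrial lipids, and were not counted as Wwtr1.

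Of the DNA-binding partners, Tead2 is known for high expression in the early mouse embryo and was above background on every array. It measured 10.97, 11.11, 11.16, 11.18, 11.28 and 10.99 across tNT lines 1 to 6, against 11.50 and 11.39 in NT lines 1 and 2. Every tNT value lay below both NT values. The difference was -0.33 on the log2 scale (1.26-fold, 95% interval of the log2 difference -0.61 to -0.06), and it did not pass over all genes (limma, adjusted p = 0.192). With each array weighted by its agreement with its group, the adjusted p was 0.0496, in a fit where 15.7% of all genes passed. It was 0.681 and 0.561 without NT line 1 and without NT line 2. The probe of Tead1, the family member often found in adult tissues, was not above background on any array (detection p 0.584 to 0.941), so Tead1 was not tested.

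Ccn1, also called Cyr61, is a secreted matrix protein and a direct target of Yap in many cell types. It had the largest difference of the set. By its brightest probe it measured 8.39, 9.02, 8.40, 8.91, 8.49 and 8.36 across tNT lines 1 to 6, against 9.21 and 9.19 in NT lines 1 and 2. Lines 2 and 4 were the highest tNT lines by this probe, and all 6 lay below the NT lines. Group means were 8.60 ± 0.29 (SD, n = 6) for tNT and 9.20 ± 0.02 (SD, n = 2) for NT, a difference of -0.60 (1.52-fold, 95% interval of the log2 difference -1.05 to -0.16). It did not pass over all genes (limma, adjusted p = 0.148). It passed in 2 of 20 alternatives, without tNT line 2 (-0.69, adjusted p = 0.0392, where 6.6% of all genes passed) and with array weights (-0.67, adjusted p = 0.0115, where 15.7% passed). The array weights gave tNT line 2 the lowest weight, 0.28, so these alternatives are not separate. Without NT line 1 or NT line 2 the adjusted p was 0.551 and 0.561, and without another tNT line it was 0.136 to 0.221.

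Both other probes of Ccn1 had negative differences, of -0.65 and -0.80 (limma, adjusted p = 0.134 and 0.143 over all detected probes). With every detected probe tested on its own, 1.41% passed, and tNT values lay below both NT values for 10.6%. The Ccn1 groups were apart by the first of these and overlapped by the second, where tNT line 2 at 7.18 lay above NT line 1 at 7.15. Line 2 was the highest tNT line by all 3 probes, while line 4 at 8.28 lay below line 6 at 8.36 by the first of these. Before normalization the groups overlapped also by the brightest probe, since tNT line 2 had a bead intensity of 679.9 against 685.0 and 641.2 in NT lines 1 and 2. The separation of the groups by that probe is thus a result after normalization. The 3 probes report the same RNA and are not independent measurements of it.

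Ccn2, also called Ctgf, is the closest relative of Ccn1 in the set, a secreted matrix protein and a standard readout of Yap. Its log2 intensity was 11.81, 11.76, 11.36, 12.37, 12.27 and 12.28 across tNT lines 1 to 6, against 12.27 and 12.28 in NT lines 1 and 2. Lines 1 to 3 lay below the NT lines, with line 3 lowest, while lines 4 to 6 lay at or above the level of the NT lines. The mean difference of -0.30 (95% interval -0.87 to 0.27, limma, adjusted p = 0.590) thus averaged tNT lines at the NT level with others below it. The SD among tNT lines was 0.40 (n = 6), and 87.5% of all genes tested varied as little or less. Ccn1 and Ccn2 did not order the tNT lines alike, since line 2 was highest for Ccn1 and among the low lines for Ccn2.

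Amotl2, a target of Yap that also binds Yap and favours its phosphorylation, measured 7.76, 7.64, 8.00, 8.28, 8.30 and 8.50 across tNT lines 1 to 6, against 8.15 and 8.49 in NT lines 1 and 2. Lines 1 to 3 lay below both NT lines and lines 4 to 6 within or just above their range. Ccn2 had the same split of lines, as did the fibroblast marker Sparc, with lines 1 to 3 below lines 4 to 6. The markers Col5a1, Twist1 and Zfp42 had lines 1 to 3 above lines 4 to 6. The share of all tested genes that split the lines this way was not counted. The difference was -0.24 (95% interval -0.76 to 0.27, limma, adjusted p = 0.633). It depended on the NT lines, at -0.41 without NT line 1 and -0.07 without NT line 2, while leaving out 1 tNT line gave values between -0.33 and -0.15.

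Axl, a receptor tyrosine kinase at the cell surface and a target of Yap in human cells, measured 7.73, 8.15, 7.20, 7.29, 7.42 and 7.35 across tNT lines 1 to 6, against 7.82 and 7.64 in NT lines 1 and 2. Line 2 was highest of all 8 lines, and lines 3 to 6 lay below both NT lines. The difference was -0.21 (95% interval -0.74 to 0.32, limma, adjusted p = 0.697). It changed sign when only the 3 tNT lines at passage 17 to 19 were used (0.03). Fibroblasts express Axl, and the mean log2 level of the 10 fibroblast markers was 8.13, 8.56, 7.73, 7.73, 7.85 and 7.91 across tNT lines 1 to 6, against 8.17 and 7.98 in NT lines 1 and 2. The 4 lines with the highest Axl were thus the 4 with the highest mean of the fibroblast markers, in the same order. Single markers differed from this mean. Dcn was highest in tNT line 2, as Axl was. Sparc was lower in tNT lines 1 and 2 than in lines 4 to 6, and Acta2 was higher in both NT lines than in tNT line 2. The part of the fibroblast markers in the Axl values was not tested. The highest mean of the fibroblast markers was in tNT line 2, which was also the tNT line with the highest Ccn1. The next tNT line by the brightest Ccn1 probe, line 4 at 8.91, had a marker mean among the lowest, 7.73. The part of the markers in the Ccn1 values was not tested.

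**Figure D3:**
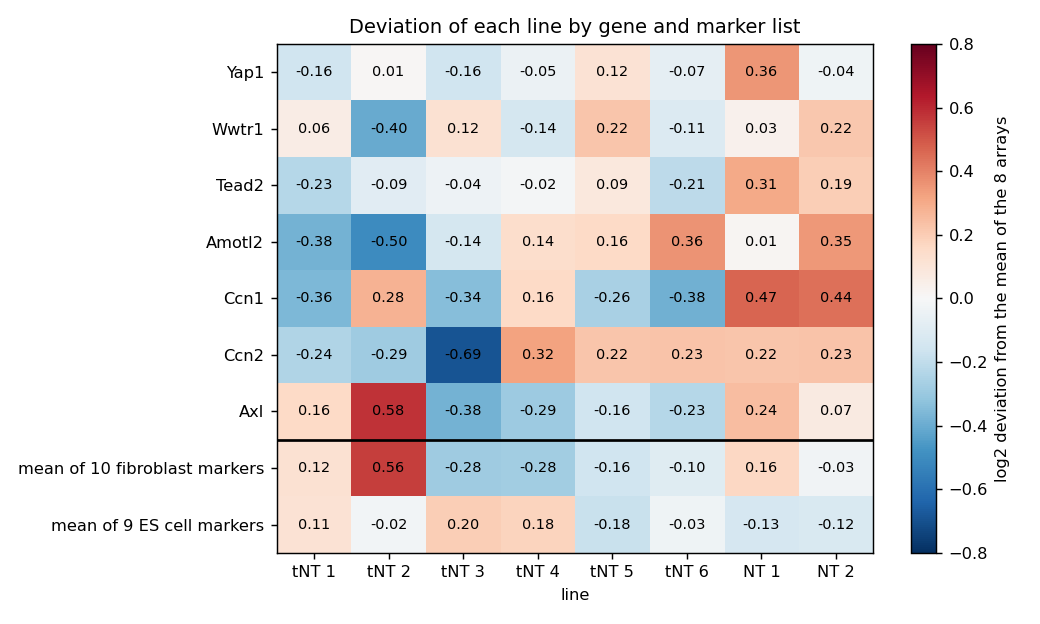
Deviation of each line (columns) from the mean of the 8 arrays, in log2 units, for the 7 tested genes and for the mean of the fibroblast and the embryonic stem cell markers (rows), with red for higher and blue for lower values. The 6 genes other than Yap1 are positive in both NT lines, Axl and the fibroblast markers are highest in tNT line 2 at 0.58 and 0.56, and Ccn2 is lowest in tNT line 3 at -0.69.

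Genes around the members were read from lists chosen by function. Of 25 upstream genes of the pathway, 19 had a probe and 15 were tested. None passed, with 6 negative and 9 positive differences and a median of 0.07. The scaffold protein Sav1, which joins the upstream Hippo kinases to Lats, had the smallest p. It measured 9.75, 9.96, 9.76, 9.66, 9.40 and 9.56 across tNT lines 1 to 6, against 9.34 and 9.21 in NT lines 1 and 2, all tNT lines above both NT lines (difference 0.40, limma, adjusted p = 0.198). The next were the Lats-binding LIM protein Wtip at 0.26, Wwc2, a relative of the Lats activator Wwc1, at -0.23, and Btrc, the ubiquitin ligase subunit that recognises phosphorylated Yap, at 0.32 (limma, adjusted p between 0.305 and 0.341). Their groups did not overlap either, but genes named for a small p are likely to have groups apart. Of all 15 tested, tNT lines lay above both NT lines for 4 and below both for 1. Groups did not overlap for 21.7% of all tested genes. The kinase Stk4, one of the mammalian Hippo kinases, differed by -0.06 and the Lats cofactor Mob1a by 0.03 (limma, adjusted p = 0.841 and 0.942). Of 6 other Tead and Vgll genes, 2 were tested. Tead4, the partner of Yap in the outer cells of the mouse blastocyst, differed by 0.04, and Vgll4, which competes with Yap for Tead, by -0.19 (limma, adjusted p = 0.955 and 0.669).

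Of 17 other genes known as Yap targets from human cells, 14 had a probe and 9 were tested. Of these 9, 1 was called lower in tNT lines at an adjusted p under 0.05 (limma). Over all genes tested, 0.964% were called lower. That gene was Igfbp3, a secreted binding protein of insulin-like growth factors. It measured 6.63, 6.95, 6.42, 6.78, 6.55 and 7.01 across tNT lines 1 to 6, against 8.08 and 8.27 in NT lines 1 and 2. All tNT values lay well below both NT values, at a mean of 6.72 ± 0.23 (SD, n = 6) against 8.18 ± 0.13 (SD, n = 2). The difference of -1.46 (2.74-fold, limma, adjusted p = 0.00505) exceeded the spread within each group. With a single NT line left in the comparison the call was lost, at an adjusted p of 0.0953 without NT line 1 and 0.115 without NT line 2, though the differences were -1.55 and -1.36. Those fits assume that the remaining NT line varies as the tNT lines do.

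The target genes beside Igfbp3 did not share a direction. Of the 9 tested, Igfbp3 included, 5 had negative and 4 positive differences, with a median of -0.05. Nt5e, an enzyme at the cell surface that forms adenosine, measured 5.24, 6.79, 5.97, 4.90, 5.29 and 5.57 across tNT lines 1 to 6, against 6.89 and 7.14 in NT lines 1 and 2. It was above background on 3 of the 6 tNT arrays, and its difference of -1.38 did not pass (limma, adjusted p = 0.116). Its size rests partly on the 3 tNT values not above background and moved from -1.89 with the authors' processed values to -0.64 without background correction. The adjusted p was 0.0119 without tNT line 2, its highest tNT line, and 0.00359 with array weights, but 0.461 and 0.558 without NT line 1 and without NT line 2. Asap1, Ptpn14 and Ankrd1 had positive differences of 0.27, 0.20 and 0.13 (limma, adjusted p between 0.382 and 0.709). Ptpn14 was 0.09 without NT line 2 and Ankrd1 was 0.08 without tNT line 2. Ankrd1 is a muscle and stress protein that is often used beside Ccn1 and Ccn2 as a readout of Yap, and its tNT values of 6.12 to 6.61 spanned both NT values of 6.26.

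**Figure D4:**
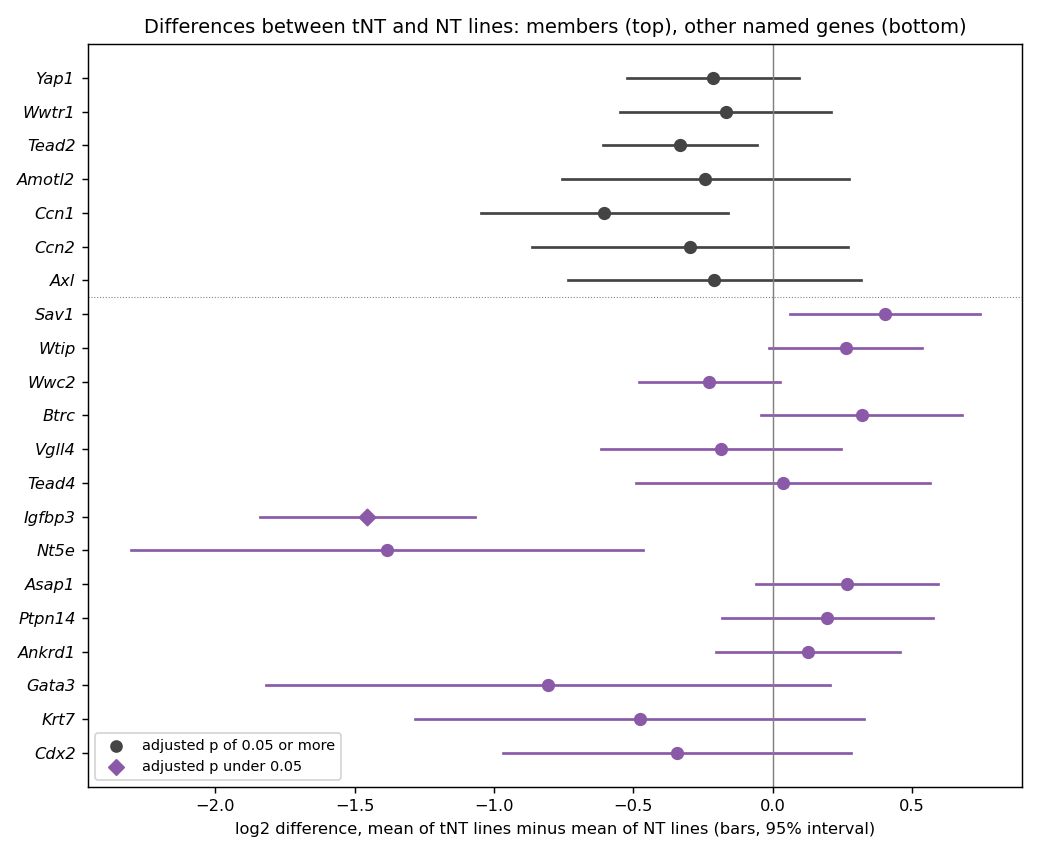
Log2 difference of tNT minus NT lines (horizontal axis) with its 95% interval for the 7 tested members (grey, above the dotted line) and 14 other named genes (purple, below it). These 14 come from the pathway and target lists and, for Gata3, Krt7 and Cdx2, from the trophectoderm list. Igfbp3 is the one gene past an adjusted p of 0.05 (diamond), and all 7 members lie left of zero with intervals that reach it except for Tead2 and Ccn1.

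Passage was compared as a slope over the 6 tNT lines. No member passed (limma, smallest adjusted p = 0.994), and 0% of all genes tested passed, with 4.44% at an unadjusted p under 0.05. Axl had a slope of -0.05 and Amotl2 of 0.04 log2 units per passage, and the slopes of the other 5 lay between -0.01 and 0.02. For Axl the lines at passage 17 and 19 were highest, at 7.73 and 8.15, while the line at passage 18 measured 7.42 and those at passage 25 to 29 lay between 7.20 and 7.35. For Amotl2 the line at passage 18 measured 8.30, above one of the lines at passage 25, so the order of the levels was not that of the passages.

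**Figure D5:**
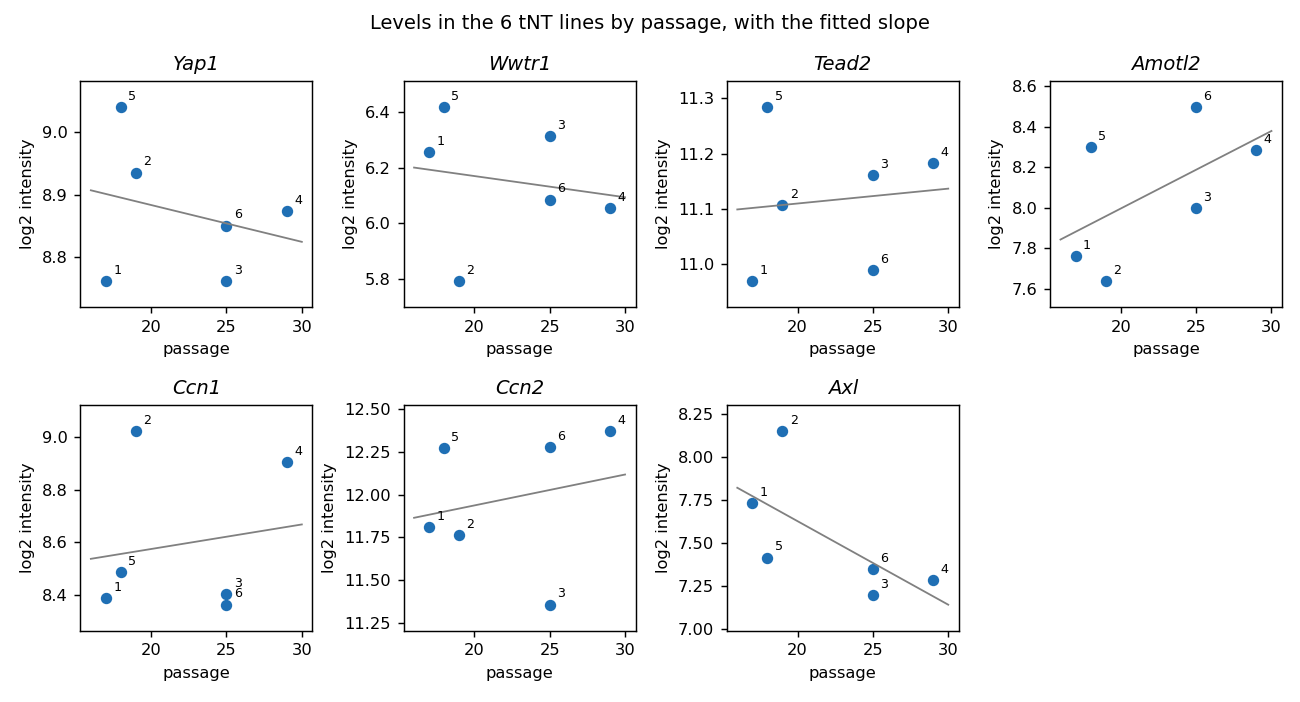
Normalized log2 intensity (vertical axes, each with its own range) against passage (horizontal axes) in the 6 tNT lines for the 7 tested genes, with line numbers beside the points and the fitted slope in grey. No slope passed, and lines of similar passage differ from each other, as lines 1, 5 and 2 at passage 17, 18 and 19 do for Amotl2.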

How the data were processed

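The main deposited file lists linear bead intensities without background subtraction, judged by their lowest values, and per the file headers each is followed by its detection p-value. The authors' processed values are deposited on a log2 scale, with a median of 3.49 in each of the 8 columns and the probes of each array in the order of its intensities. BeadStudio 3.2, lumi and RMA appear in the submitters' processing notes without roles, so the steps behind the processed values are unknown here. Column names were matched to the labels of the lines.

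The neqc function of limma 3.58.1 under R 4.3.3 corrected the background and normalized by quantiles on the log2 scale, with an offset of 16 and negative control levels inferred from detection p-values. Genes entered the tests with a detection p under 0.01 on 2 or more of the 8 arrays, each through its brightest such probe. Symbols come from the platform annotation, updated through gene identifiers (23962 of 25697 probes matched RefSeq). The platform annotation gives 23978 probes 1 gene, none several and 1719 no name. Groups and passage were fitted with lmFit and eBayes, 2-sided, with Benjamini-Hochberg adjustment over all 8816 and a threshold of 0.05. The fits were also run on simulated data with independent noise, where only the mean estimates had to match the differences put in. No share of calls was required, so that check does not tell how large a difference these fits would miss.

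The members and lists were chosen with earlier results of these data known. The text names every member, genes of the lists past the threshold and up to 4 more of smallest p per list, the markers, and the 3 genes most like Yap1. Stk4 and Mob1a were chosen after their values were seen. Lists were described by counts and medians and not tested. Alternatives covered normalization, offset, detection filters, probes, variance model, array weights, left-out lines, passage ranges and a block by line number. No arrays were copies, since a pair shared equal intensities for at most 1 probe. Promoters were searched with Python 3.11.15 and pandas 2.3.3, and figures drawn with matplotlib 3.10.9.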

Additional observations from a re-analysis of the deposited data

How the results depend on the processing

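The number of members past the threshold was 0 in 18 of 20 alternatives, 2 with array weights (Tead2 and Ccn1) and 0 to 1 when a line was left out (Ccn1 without tNT line 2). All 7 differences stayed negative except that of Axl, which was 0.21 with line number as a replicate block and 0.035 with tNT lines at passage 17 to 19. Line numbers do not pair these samples by the labels (correlations of deviations 0.04 and 0.00 for numbers 1 and 2), and 157 genes passed under that block. Ranges of the difference over the alternatives were -0.41 to -0.02 for Yap1, -0.30 to -0.08 for Wwtr1, -0.41 to -0.28 for Tead2, -0.69 to -0.49 for Ccn1, -0.48 to -0.17 for Ccn2 and -0.62 to -0.06 for Amotl2. The count over all genes was 164 in the fit reported, 1381 with array weights, 27 with tNT lines at passage 17 to 19 and 6 to 582 when a line was left out. Among the list genes, 1 passed as reported, 2 with array weights and 0 to 2 when a line was left out. Tead4 turned to -0.20 under the block and -0.17 at passage 17 to 19, and ranged from -0.086 to 0.12 without a line, and Ankrd1 turned to -0.026 at passage 25 to 29. Over the alternatives Igfbp3 ranged from -1.63 to -0.97, Nt5e from -1.89 to -0.64, Asap1 from 0.05 to 0.35 and Ptpn14 from 0.09 to 0.30, with the smallest size without background correction for Igfbp3 and Nt5e, under the block for Asap1 and without NT line 2 for Ptpn14. No member passed for passage under any of 10 alternatives. Slopes without a line ranged from -0.0070 to 0.012 for Tead2, -0.024 to 0.026 for Ccn1, -0.019 to 0.039 for Ccn2, -0.016 to 0.0016 for Yap1 and -0.022 to 0.0045 for Wwtr1. The causes were not tested. Lats2, Tead1 and Lats1 are limited by signal over background or by the lack of a named probe.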

Other observations

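Trophectoderm genes, some of which Yap and Tead4 switch on in the outer cells of the mouse blastocyst, were dim in all lines. Of 6 such genes, 3 were tested and none passed. Gata3, Krt7 and Cdx2 had differences of -0.81, -0.48 and -0.34 (limma, adjusted p = 0.395, 0.533 and 0.567). These sizes were not stable. Over the alternatives Gata3 ranged from -1.16 to -0.36, Krt7 from -0.85 to -0.20 and Cdx2 from -0.58 to -0.02, with Krt7 at -0.29 without tNT line 2 and Cdx2 at -0.20 without NT line 2. Gata3 measured 6.05, 5.19, 5.06, 5.96, 6.91 and 6.65 across tNT lines 1 to 6, against 6.70 and 6.85 in NT lines 1 and 2, so tNT line 5 was highest and the groups overlapped. Gata3 and Cdx2 were each above background on 4 of the 6 tNT arrays and on both NT arrays.

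The named genes whose levels over the 8 arrays were most like those of Yap1 were Mpp5 and Pym1, with Pearson correlations of 0.94 and 0.91 and Spearman correlations of 0.74 each, and an unnamed probe followed at 0.90. The 2 arrays farthest from the Yap1 median were NT line 1 and tNT line 5. Without them the Pearson correlation was 0.49 for Mpp5, 0.80 for Pym1 and 0.16 for the unnamed probe. The correlations of Mpp5 and of the unnamed probe thus rested on those arrays. These genes were picked for their likeness, and no p is given.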
